A study of Mus musculus and Homo sapiens with 15 samples.

Results

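The genes described here are 10 human genes listed under the azurophil (primary) granule and followed in U937 cells. That granule is the protease-rich compartment that granulocyte and monocyte precursors fill at the promyelocyte stage. The genes were PRTN3, ELANE, AZU1, CTSG and PRSS57 (the serine protease family), RNASE2 and RNASE3 (granule ribonucleases, also of eosinophils), MPO and LYZ. The last was CEBPE, which encodes no granule protein but a transcription factor of granulocytic maturation. The members were chosen by symbol with their CPM in these same libraries, ATO against PBS, in view, so their values in the comparison of arsenic with control are a description and carry no test. All 10 were found among the 61806 genes of the U937 table, and 9 of the 10 reached a mean of 1 CPM (the count scaled to the library's total) over the libraries, as did 13722 genes in all. The gene below that level was MPO.

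U937 is an established human myeloid leukaemia line of promonocytic character. Both libraries came from U937 cells made to express the p53 mutant R282W, and differed in treatment: phosphate-buffered saline (PBS) in the control and arsenic trioxide (ATO), a drug used against promyelocytic leukaemia, in the other. There was 1 library per treatment, and the labels used here give neither the dose, the time of exposure, nor how the mutant was introduced. The other samples of the study are mouse tumours. Thymic T-cell lymphomas of mice homozygous for the same p53 mutation (W/W mice) were taken at day 150 of life from 3 mice given water, 3 given ATO whose tumours were progressing and 3 given ATO whose tumours were regressing. Tumours grafted into C57 mice, labelled as a CDX model with the genotype WT, came from 2 mice given PBS and 2 given ATO. The U937 libraries held 17872972 (PBS) and 16454534 (ATO) counted reads, so that 3 counts corresponded to 0.168 and 0.182 CPM. The leukocyte gene PTPRC stood at 333 CPM in PBS and 219 CPM in ATO.

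Azurophil granules are formed early in myeloid development, when transcription of their cargo is switched on by factors that include C/EBPα, PU.1, RUNX1 and MYB, and the cargo genes are silenced again as cells move on to make specific granules or become macrophages. The serine proteases are made as proenzymes, trimmed by the dipeptidyl peptidase cathepsin C, and stored bound to the proteoglycan serglycin until the granule meets a phagosome or is released. Myeloperoxidase, a heme enzyme that makes hypochlorous acid, is the protein by which azurophil granules are usually recognised.

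The DNA just upstream of the transcription start is shown for the 4 cargo genes that carried a match to the letters that C/EBP factors recognise. PRTN3, RNASE3 and RNASE2 were the members with the lowest ratios of ATO to PBS. AZU1, with a match, was 3.01-fold lower, and ELANE, without one, 6.11-fold lower. Whether the letters bear on the ratios was not tested. Each run is 250 bases ending at the base before the start of the Ensembl canonical transcript, read 5′ to 3′ on the gene's strand from the human genome build hg38. Capitals mark matches to the C/EBP letters TTGCNNAA or the PU.1 letters GAGGAA, searched on both strands, so that TTGGGCAA is a C/EBP match on the opposite strand.
PRTN3 (chr19:840749-840998, plus strand): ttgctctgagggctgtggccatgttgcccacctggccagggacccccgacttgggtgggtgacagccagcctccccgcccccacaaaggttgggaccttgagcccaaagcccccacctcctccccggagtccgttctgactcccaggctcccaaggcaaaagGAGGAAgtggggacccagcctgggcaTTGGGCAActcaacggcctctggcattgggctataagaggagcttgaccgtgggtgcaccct
AZU1 (chr19:827587-827836, plus strand): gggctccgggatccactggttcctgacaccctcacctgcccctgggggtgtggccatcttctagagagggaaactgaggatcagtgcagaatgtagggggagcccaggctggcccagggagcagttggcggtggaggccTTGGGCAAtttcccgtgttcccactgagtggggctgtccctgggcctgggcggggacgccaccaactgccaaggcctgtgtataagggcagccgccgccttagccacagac
RNASE2 (chr14:20955237-20955486, plus strand): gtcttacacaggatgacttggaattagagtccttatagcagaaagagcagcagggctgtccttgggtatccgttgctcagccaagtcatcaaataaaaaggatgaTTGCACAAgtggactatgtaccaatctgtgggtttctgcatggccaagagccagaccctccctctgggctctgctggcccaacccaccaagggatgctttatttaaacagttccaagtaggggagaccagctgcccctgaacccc
RNASE3 (chr14:20891135-20891384, plus strand): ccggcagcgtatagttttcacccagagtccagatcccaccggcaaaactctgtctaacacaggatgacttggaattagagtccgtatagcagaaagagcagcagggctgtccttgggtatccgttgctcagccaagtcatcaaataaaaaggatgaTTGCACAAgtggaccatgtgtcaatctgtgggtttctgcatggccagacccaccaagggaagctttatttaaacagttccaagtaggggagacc
In PRTN3 the C/EBP match lay 62 to 55 bases upstream of the start and the PU.1 match 88 to 83 bases upstream. The AZU1 window lies inside the annotated span of AZU1 (chr19:825097-832018), with its C/EBP match 111 to 104 bases upstream and no PU.1 match. The ELANE window (chr19:852053-852302), part of which is printed below, likewise lies inside the span of ELANE (chr19:851014-856247). RNASE2 and RNASE3 carried the same C/EBP letters, TTGCACAA, at 145 to 138 and 94 to 87 bases upstream. That match sits inside a stretch of 86 bases which is identical in both windows, and over the whole windows the pair aligned with 63.8% identity.

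PRTN3 and ELANE, which lie next to each other, shared a PU.1 match in nearly the same place, and the 30 bases around it are set side by side here.
PRTN3 (chr19:840899-840928, plus strand): ccaaggcaaaagGAGGAAgtggggacccag
ELANE (chr19:852201-852230, plus strand): tgtgccaggggaGAGGAAgtggagggcgct
The longest run that these 2 windows had in common was 16 bases, gggctataagaggagc, placed 35 to 20 bases upstream of the start in each gene. Among 19999 human windows of the same length the C/EBP letters occurred in 7.11% and the PU.1 letters in 23.3%, against 4 and 5 of the 10 members. The 4 include RNASE2 and RNASE3, whose match lies in a stretch identical in both, so they are not separate cases. C/EBP and PU.1 letters together were found in 1.64% of the windows and, among the members, in PRTN3. The other PU.1 matches were in ELANE, MPO, CTSG and CEBPE. RUNX letters (TGTGGT, in 8.88% of windows) matched in LYZ and PRSS57. MYB letters (TAACNG, in 2990 of the 19999) and the TATA letters TATAAA (9.34%) matched in none of the 10. Only these exact letters were searched, so near spellings were missed. The PRTN3 and ELANE windows both hold caacgg, and their shared run holds tataag. The absence of a match therefore does not show that such an element is absent. A match is a description of letters in this window and does not show that a factor binds there.

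Of the 10 genes, 7 were at least 2-fold lower in the ATO library than in the PBS library, on the scale of log2(CPM + 1), and CEBPE was at least 2-fold higher. MPO and PRSS57 stood within a few CPM of 0 in both. Over all genes tested, 1171 of 13722 (8.53%) were at least 2-fold lower and 2096 (15.3%) at least 2-fold higher, but because this same comparison was in view when the genes were listed, nothing is read from the excess. The median log2 ratio of the 10 genes was -1.73, beside 0.13 for all genes tested. Together they held 0.2765% of all counts in PBS (95% Wilson binomial interval 0.2741 to 0.279%) and 0.0673% in ATO (0.0661 to 0.0686%). This was a 4.11-fold lower share (95% exact conditional interval 4.02 to 4.19). Without LYZ, the most abundant of them, the share was 5.10-fold lower (4.91 to 5.29). These intervals, and those given with each gene, cover counting error only. With 1 library per treatment there is no replicate to set the difference against, and fewer cells of a kind and less RNA per cell cannot be told apart in bulk libraries.

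**Figure D1:**
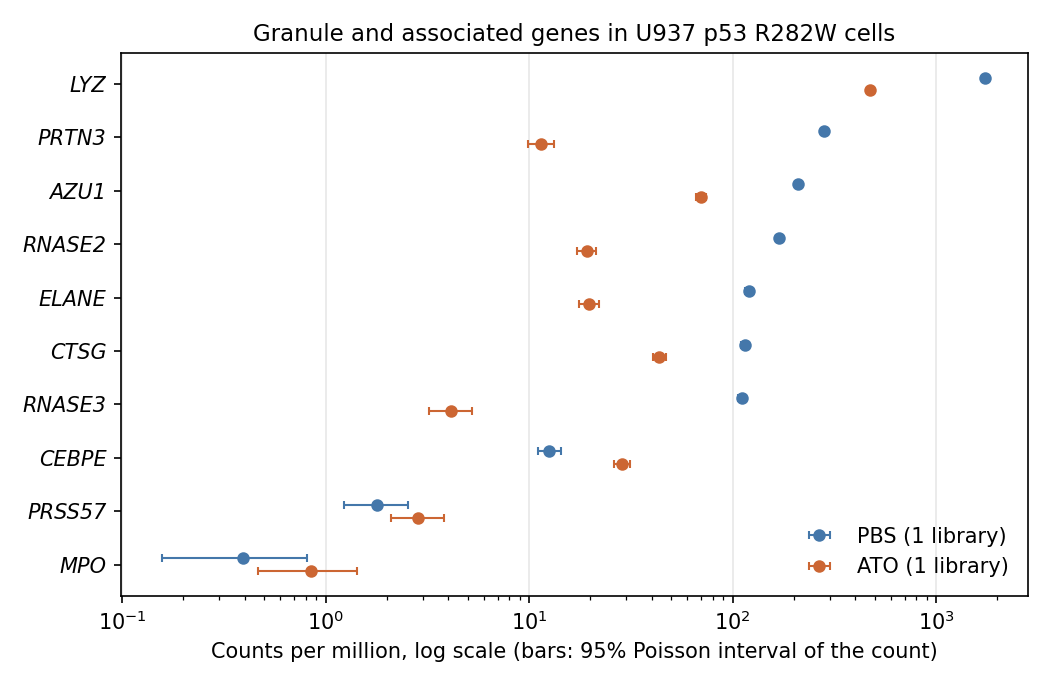
CPM of each of the 10 genes in the PBS and the ATO library of U937 cells, on a log axis. Points are single libraries and bars are exact 95% Poisson intervals of the count. PRTN3 goes from 281 to 11.5 CPM and LYZ from 1744 to 473 CPM, while CEBPE goes from 12.6 to 28.5 CPM and MPO stays below 1 CPM.

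The largest difference among the proteases was in PRTN3 (ENSG00000196415, chr19:840999-848175), which encodes proteinase 3, an elastase-like protease and a main autoantigen of vasculitis with antineutrophil antibodies. It had 5024 counts (281 CPM) in PBS and 189 counts (11.5 CPM) in ATO, 24.5-fold lower (95% exact conditional interval 21.2 to 28.5). Its log2 ratio of -4.50 was the second lowest of the 13722 genes tested, after that of FASN, the fatty acid synthase. ELANE (ENSG00000197561, chr19:851014-856247), neutrophil elastase, which is mutated in cyclic and severe congenital neutropenia, had 2149 counts (120 CPM) in PBS and 324 (19.7 CPM) in ATO. This was 6.11-fold lower (5.43 to 6.88), a smaller fold than that of its neighbour PRTN3, with intervals that do not overlap.

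AZU1 and CTSG differed less. AZU1 (ENSG00000172232, chr19:825097-832018) encodes azurocidin, a protease homologue that has lost its catalytic residues and acts as an antimicrobial protein and attractant of monocytes. Its counts were 3759 (210 CPM) in PBS and 1150 (69.9 CPM) in ATO, 3.01-fold lower (2.82 to 3.22). CTSG (ENSG00000100448, chr14:24573518-24576250), cathepsin G, a chymotrypsin-like protease encoded apart from the others on chromosome 14, had 2053 counts (115 CPM) and 719 counts (43.7 CPM), 2.63-fold lower (2.41 to 2.87). The intervals of the 4 proteases PRTN3, ELANE, AZU1 and CTSG did not overlap, except that the upper end for CTSG reached above the lower end for AZU1. PRSS57 (ENSG00000185198, chr19:685546-695498), neutrophil serine protease 4, was close to the limit of detection in both libraries, at 32 counts (1.79 CPM) and 47 counts (2.86 CPM). Its ratio of ATO to PBS was 1.59 (0.997 to 2.58), so counting error alone spans no difference. It overlaps a pseudogene on the opposite strand, RPS2P52, which had 2 and 3 counts.

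Both granule ribonucleases were lower in ATO. RNASE3 (ENSG00000169397, chr14:20891385-20892348), eosinophil cationic protein, is a cytotoxic ribonuclease best known from eosinophil granules and also carried by neutrophils. It had 1983 counts (111 CPM) in PBS and 68 counts (4.13 CPM) in ATO, 26.9-fold lower (21.1 to 34.7), the largest fold among the 10 genes, with an interval that overlaps that of PRTN3. RNASE2 (ENSG00000169385, chr14:20955487-20956436), eosinophil-derived neurotoxin, an antiviral ribonuclease also made by monocytes, had 3013 counts (169 CPM) and 315 counts (19.1 CPM), 8.81-fold lower (7.84 to 9.92).

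The pair arose by gene duplication, and their canonical transcripts, 720 and 734 bases long, were 86.4% identical over the alignment with a longest shared run of 67 bases. A pseudogene between them, RNASE2CP, shares runs of 112 bases with RNASE2 and 64 with RNASE3 and had 455 counts in PBS and 67 in ATO. How the authors' counting shared reads among these copies is not given in the sources used here, so the split between RNASE2 and RNASE3 is uncertain. The sum of RNASE2 and RNASE3, which does not depend on the split between them, was 12.01-fold lower in ATO (10.8 to 13.4). The protease transcripts are less alike: PRTN3 and ELANE were 56.7% identical with a longest shared run of 25 bases, and PRTN3 and AZU1 53.3%.

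LYZ (ENSG00000090382, chr12:69348381-69354234) encodes lysozyme, which cleaves bacterial cell walls and is made by macrophages as well as by granulocytes. It was by far the most abundant member, at 31176 counts (1744 CPM) in PBS and 7781 counts (473 CPM) in ATO, 3.69-fold lower (3.60 to 3.78). MPO (ENSG00000005381, chr17:58269855-58280935) had 7 counts in PBS and 14 in ATO, or 0.392 and 0.851 CPM. Its ratio of 2.17 had an interval of 0.821 to 6.36. The gene by which azurophil granules are usually defined was thus near 0 in both libraries.

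CEBPE (ENSG00000092067, chr14:23117036-23120256) encodes C/EBPε, the factor needed for the step from azurophil to specific granules and lost in specific granule deficiency. It moved opposite to the cargo, from 225 counts (12.6 CPM) in PBS to 469 counts (28.5 CPM) in ATO, a ratio of 2.26 (1.93 to 2.67). On the log2(CPM + 1) scale this was 1.12. It passed 2-fold narrowly, and no longer did so with other settings: the log2 ratio was 0.92 with TMM factors (edgeR's trimmed mean scaling), 0.95 with DESeq2 size factors and 0.93 with a pseudocount of 5 CPM.

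**Figure D2:**
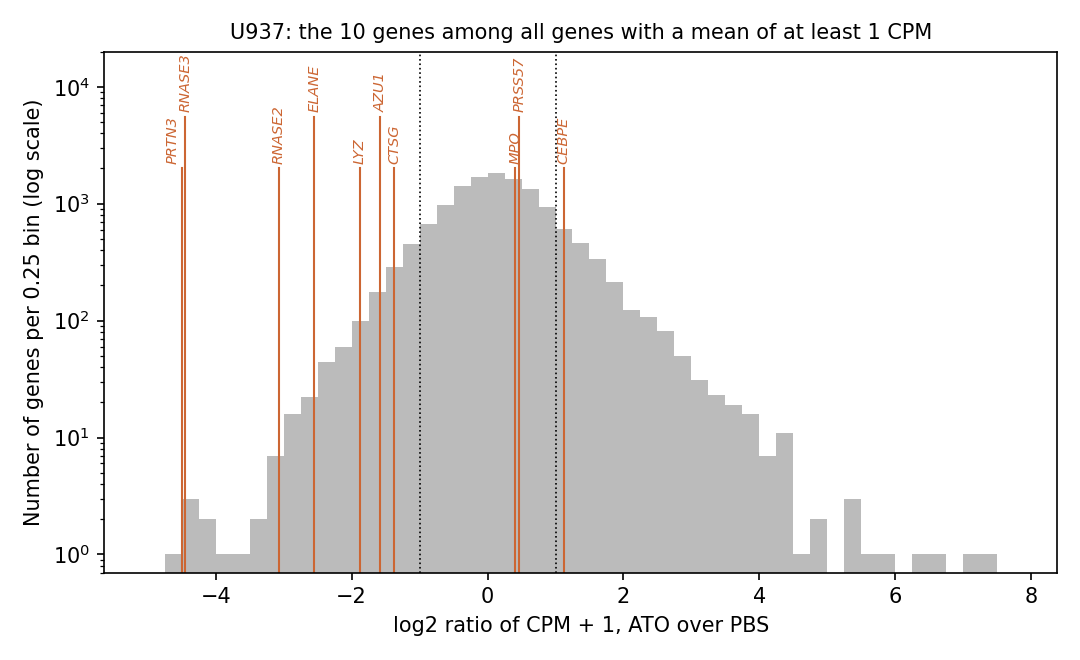
Histogram of the log2 ratio of CPM + 1, ATO over PBS, for the 13722 U937 genes whose mean reached 1 CPM, with a line at the value of each of the 10 genes (MPO is drawn although it lies below that mean). PRTN3 at -4.50 and RNASE3 at -4.45 lie at the far left edge, LYZ, AZU1 and CTSG between -1.88 and -1.37, and CEBPE at 1.12 on the right.

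Because the differences were unequal, the order of the genes changed. Levels of different genes can be set side by side only per length, for which the deposited FPKM values, fragments scaled to exonic length and library size, were used. In PBS the order was LYZ (1012 FPKM), PRTN3 (254), RNASE2 (234), RNASE3 (151), AZU1 (118), ELANE (117) and CTSG (84.0), with CEBPE, PRSS57 and MPO at 7.14, 1.64 and 0.09 FPKM. AZU1 and ELANE did not differ beyond counting error there. In ATO it was LYZ (274 FPKM), AZU1 (39.2), CTSG (31.9), RNASE2 (26.6), ELANE (19.15), CEBPE (16.2), PRTN3 (10.4), RNASE3 (5.63), PRSS57 (2.62) and MPO (0.19). In that library the counting intervals of CTSG and RNASE2, and those of ELANE and CEBPE, overlapped. PRTN3 passed from 2.17 times the FPKM of ELANE in PBS to 0.542 times in ATO, and from 2.15 times that of AZU1 to 0.265 times. AZU1 went from 1.01 to 2.05 times the level of ELANE, RNASE2 from 1.55 to 4.72 times that of RNASE3, and LYZ from 3.99 to 26.4 times that of PRTN3.

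PRTN3, ELANE and AZU1 form a cluster on chromosome 19, with PRSS57 further along the same arm. The gap from AZU1 to PRTN3 is 8981 bases, that from PRTN3 to ELANE 2839 bases, and PRSS57 ends 129599 bases before AZU1. The summed counts of the 3 clustered genes were 6.05-fold lower in ATO (5.75 to 6.38). The genes around them did not share this. Among the 22 other tested genes within 250 kb of the chromosome 19 members, 1 was at least 2-fold lower and 1 at least 2-fold higher, with a median log2 ratio of -0.04. The lower gene was WDR18, a ribosome assembly factor, at 46.6 CPM in PBS and 18.96 CPM in ATO. The higher gene was CFD, the next gene after ELANE at a distance of 3206 bases, which encodes complement factor D, a serine protease of the same fold. CFD had 145 counts (8.11 CPM) in PBS and 1148 counts (69.8 CPM) in ATO, a ratio of 8.60 (7.23 to 10.3). AZU1, PRTN3 and ELANE were thus lower in ATO and CFD, directly beside them, was higher.

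**Figure D3:**
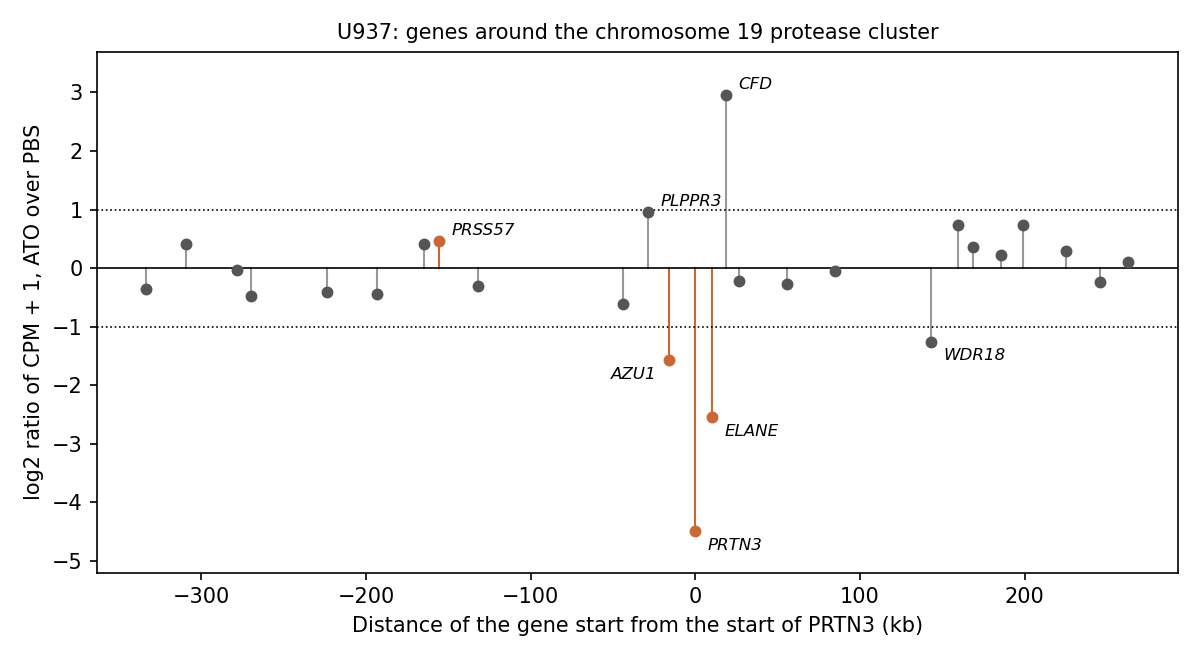
Log2 ratio of CPM + 1, ATO over PBS, of the genes around PRTN3 on chromosome 19, against the distance of each gene's start from the start of PRTN3 in kb. Members and other genes are drawn in different colours. AZU1, PRTN3 and ELANE lie at -1.58, -4.50 and -2.55, and CFD, directly after ELANE, at 2.96.

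Around the members on chromosome 14, 1 of 29 other tested genes was at least 2-fold lower and 7 were at least 2-fold higher. The lower gene was RNASE2CP, the pseudogene between the ribonuclease genes, at 25.5 and 4.07 CPM. Of the 4 tested neighbours of LYZ on chromosome 12, CPSF6 and YEATS4 were at least 2-fold lower, with log2 ratios of -1.09 and -1.03. YEATS4 lies 5476 bases from LYZ. None of the 8 tested neighbours of MPO on chromosome 17 passed 2-fold in either direction. Over all 63 tested neighbours, 4 were at least 2-fold lower and 8 at least 2-fold higher, with a median of 0.09.

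The other parts of the granule system differed from list to list. Of 9 tested genes for the processing, matrix and inhibitors of granule proteases, 3 were at least 2-fold lower and none higher, where 8.53% and 15.3% of all genes tested were. By any amount 6 were lower and 3 higher, with a median log2 ratio of -0.11. The 11 listed genes summed to 2599 CPM in PBS and 1269 CPM in ATO. The lower genes were SRGN, the serglycin core protein on which granule cargo is packed (1339 CPM in PBS, 439 CPM in ATO), CST3, the cysteine protease inhibitor cystatin C (290 and 131 CPM), and SERPINB1, the cytosolic inhibitor of the neutrophil serine proteases (271 and 123 CPM). CTSC, the protease that activates them, had 281 CPM in PBS and 166 CPM in ATO. RNH1, the cytosolic inhibitor of the granule ribonucleases, had 206 and 198 CPM.

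Among the 25 lysosomal proteins that azurophil granules also carry, none was at least 2-fold lower and 7 were at least 2-fold higher, with a median of 0.40. The largest difference was in PSAP, the saposin precursor, at 472 CPM in PBS and 1507 CPM in ATO. GRN, progranulin, had 470 and 1288 CPM, CTSD, cathepsin D, 381 and 905 CPM, and FUCA1, a fucosidase, 48.2 and 141 CPM. CTSA and HEXA were the next largest, with log2 ratios of 1.13 and 1.05. Over the other scalings 0 to 4 of the list were lower and 4 to 7 higher.

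The remaining antimicrobial cargo was sparse. DEFA1, DEFA1B, DEFA3 and DEFA4, the neutrophil defensins, had 0 counts in both libraries, where 3 counts of the total correspond to 0.168 CPM in PBS and 0.182 CPM in ATO. DEFA1, DEFA1B and DEFA3 are near-identical copies, whose reads a counting program can discard. BPI, which binds bacterial endotoxin, had 84 counts (4.70 CPM) and 39 counts (2.37 CPM).

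Of 12 specific granule genes 2 reached 1 CPM, and they differed in opposite directions. OLFM4, TCN1, CRISP3 and CD177 were at 0 in both libraries. CAMP, the cathelicidin, had 58 counts (3.25 CPM) in PBS and 468 counts (28.4 CPM) in ATO, a ratio of 8.77 (6.66 to 11.7), and was the only member of that list above 10 CPM. CEACAM8, a surface protein of specific granules, had 92 counts (5.15 CPM) in PBS and 3 counts (0.182 CPM) in ATO, 28.2-fold lower (9.36 to 139). LTF, lactoferrin, and LCN2 had at most 2 counts. In the gelatinase and secretory granule list 1 of 6 tested genes was at least 2-fold lower and 3 were higher (median 1.11). FCN1, ficolin-1, had 38.0 CPM in PBS and 14.5 in ATO, and MMP25, a membrane-bound metalloprotease, 38.6 and 97.6 CPM.

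RNASE2 and RNASE3 are also eosinophil granule genes, but the other eosinophil genes were near 0: EPX, the eosinophil peroxidase, had 12 and 10 counts, PRG2, the major basic protein, 8 and 7, CLC 0 and 1, and PRG3 none. The 1 eosinophil gene that reached 1 CPM was CCR3, the eotaxin receptor, with 5 counts in PBS and 33 in ATO (ratio 7.17, 2.78 to 23.5), and the whole list of 6 summed to 1.40 CPM in PBS and 3.22 CPM in ATO. In the rest of the RNase A family RNASE6 had 8 counts in PBS and 39 in ATO, ANG, angiogenin, 32 and 24, RNASE4 2 and 2, and RNASE1 2 and 0. RNASE7, RNASE10 and RNASE11 had at most 3 counts in any library, and RNASE8, RNASE9, RNASE12 and RNASE13 had none. Among the mast cell genes TPSAB1, a tryptase, had 204 and 349 CPM, while CPA3 and CMA1 were at 0.

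**Figure D4:**
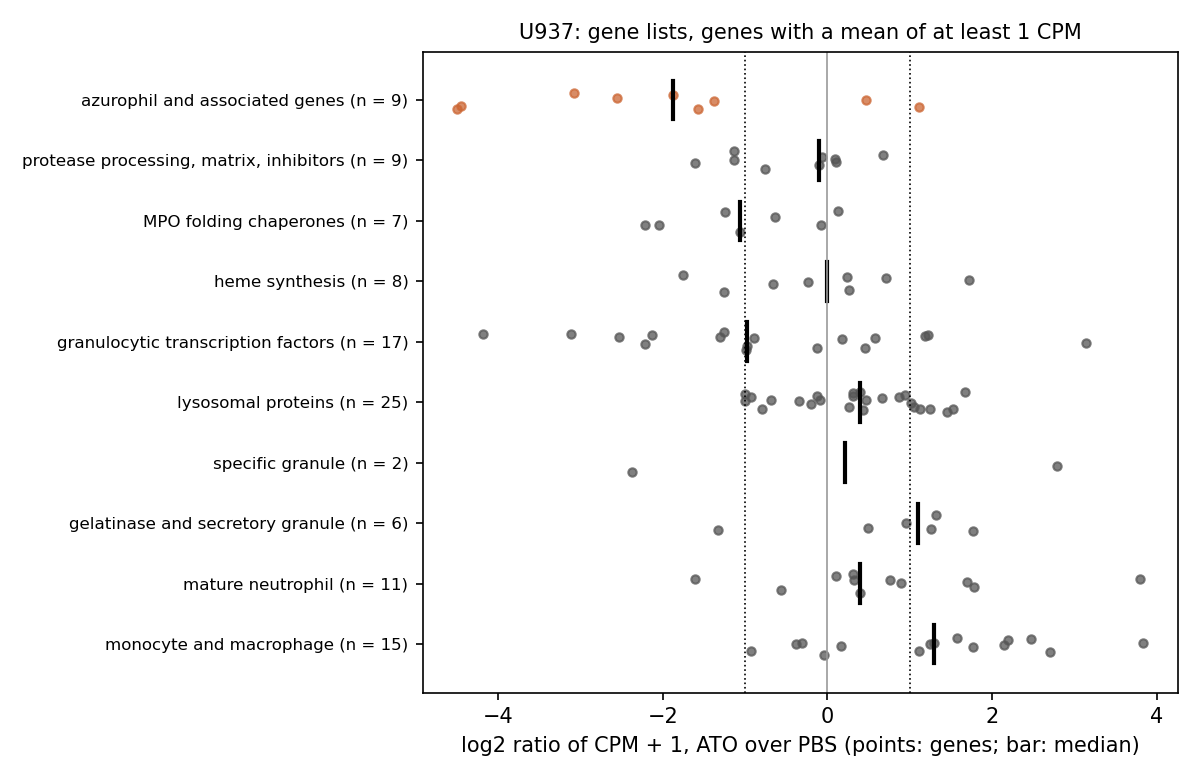
Log2 ratio of CPM + 1, ATO over PBS, of the tested genes in the members' list and 9 related lists in U937 cells. Each point is a gene, each bar the median of its list, and the dashed lines mark 2-fold. The cargo members cluster to the left with 7 genes at least 2-fold lower, while no lysosomal gene is at least 2-fold lower and 10 of 15 monocyte and macrophage genes are at least 2-fold higher.

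Transcription factors of granulocytic development also differed between the libraries, and their part in the cargo ratios was not tested. Of 17 tested factors 7 were at least 2-fold lower and 3 higher, where 8.53% and 15.3% of all genes tested were. By any amount 11 were lower and 6 higher, with a median log2 ratio of -0.98. MYC, a growth regulator of immature myeloid cells, had 195 CPM in PBS and 9.79 CPM in ATO, 19.97-fold lower (17.1 to 23.5). HOXA9 and its partner MEIS1, which maintain immature myeloid cells, had 77.5 and 8.02 CPM, and 142 and 29.7 CPM. MYB, an activator of the early granule genes, had 682 and 117 CPM, 5.81-fold lower (5.53 to 6.10). GFI1, a repressor that directs precursors to the neutrophil line, had 236 and 52.99 CPM. RUNX1, a partner of MYB and C/EBPα at early granule genes, had 277 and 112 CPM, 2.48-fold lower (2.35 to 2.61). The other factor past 2-fold was CEBPA, with 260 CPM in PBS and 108 CPM in ATO, 2.40-fold lower (2.27 to 2.54). SPI1, which encodes PU.1, stood just inside 2-fold at 151 and 76.0 CPM (log2 ratio -0.98), and over the other scalings 7 to 10 of the list were lower. Thus CEBPE and CEBPA, which encode related factors that recognise the same letters, differed in opposite directions.

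Among monocyte and macrophage genes, 10 of 15 tested were at least 2-fold higher in ATO (7 to 10 over the scalings). None was at least 2-fold lower (0 to 1 over the scalings), and the median was 1.29. Many of these were low: among the 9 with a mean of at least 10 CPM, 4 were at least 2-fold higher and the median was 0.16. MARCO, a macrophage scavenger receptor, had 2.18 CPM in PBS and 44.5 CPM in ATO, a ratio of 20.4 (14.8 to 28.9). S100A8 and S100A9, the subunits of calprotectin, had 1.62 and 16.2 CPM, and 15.6 and 72.4 CPM. CSF1R, the receptor for macrophage colony-stimulating factor, had 2.85 and 16.6 CPM. C1QA, C1QB and MSR1 were at 0 in both. Among 11 tested genes of mature neutrophils 1 was at least 2-fold lower and 3 were at least 2-fold higher (median 0.40). ITGB2, the leukocyte integrin β2 chain, had 1201 CPM in PBS and 392 CPM in ATO. FPR1, the formyl peptide receptor, had 3 counts in PBS and 250 in ATO, a ratio of 90.5 (30.6 to 442). Of 4 tested early progenitor genes none passed 2-fold.

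The chaperone and heme lists bear on the making of myeloperoxidase, although MPO itself was near 0. Of 7 endoplasmic reticulum chaperones that take part in its folding, or that of other secreted proteins, 4 were at least 2-fold lower (median -1.06). PDIA4 had 376 CPM in PBS and 80.0 CPM in ATO, PDIA6 625 and 150 CPM. HSPA5, the chaperone BiP, had 753 and 823 CPM. Of 8 heme synthesis genes 2 were at least 2-fold lower and 1 was at least 2-fold higher (median 0.00). The higher gene was ALAS1, the rate-limiting enzyme in cells other than erythroid ones, at 126 CPM in PBS and 417 CPM in ATO.

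Among markers of other cells, those of T lymphocytes and erythroid cells were low in both libraries. None of 8 T lymphocyte genes reached 1 CPM (summed 0.671 CPM in PBS and 0.669 CPM in ATO, with CD3D, CD3G and LCK at 0), and 1 of 8 erythroid genes did (4.08 and 3.53 CPM, with all listed globins at 0). B lymphocyte genes summed to 32.5 CPM in PBS and 49.6 CPM in ATO (4 of 6 tested, 1 at least 2-fold higher and 0 lower, MS4A1 at 0). Epithelial and fibroblast genes summed to 5.71 and 35.9 CPM (2 of 10 tested, 2 at least 2-fold higher). The part of these markers in the differences above was not tested.

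Placed among all genes with at least 10 CPM in either library, the 10 with the lowest ratios apart from the members were FASN, INSIG1, DHCR7, MYC, FADS2, CTDSP1, SQLE, TRIM71, FERMT1 and HOXA9, with log2 ratios between -4.67 and -3.12. PRTN3, RNASE3 and RNASE2 lie in that range or just above it, at ranks 2, 3 and 14 from the lowest, and ELANE at rank 47. At the other end HMOX1, heme oxygenase, went from 11.4 CPM in PBS to 1910 CPM in ATO. The genes with a ratio nearest to the median of the 10 members were MKI67, DPAGT1, NUDT18, CHSY1, PAQR4, PDZD8, POLR1E, RN7SL1, AFF2 and FLVCR1, which over 2 libraries says only that their ratios were alike.

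The mouse tumours, which have replicates and did not enter the choice of genes, were searched for counterparts of the members. The W/W tumours are lymphoid by their label, and granule genes in whole tissue can come from myeloid cells in it. Mice lack a functional azurocidin gene, carry a pair of lysozyme genes and have a different set of eosinophil ribonucleases, so the list held 12 genes: Prtn3, Elane, Ctsg, Prss57, Mpo, Cebpe, Lyz1, Lyz2, Ear1, Ear2, Ear6 and Ear10. Of these, 5 passed the filter on low counts in W/W thymus (Mpo, Prss57, Lyz1, Lyz2 and Ear2) and 3 did in the grafts (Prss57, Lyz1 and Lyz2). Prtn3, Elane, Ctsg and Cebpe, the counterparts of 3 of the proteases and of the factor, had a mean below 1 CPM in all 5 groups. The highest single value among them was 1.61 CPM, of Prtn3 in a regressing tumour. The differences seen in U937 cells could therefore not be examined for these genes in the tumours. Prtn3 also overlaps Plppr3 on the opposite strand, which had 42 to 274 counts in W/W and 6 to 70 in C57 samples.

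Prss57, at the limit of detection in U937 cells, passed the test in 3 of the 4 mouse contrasts. In the W/W thymus (GRCm38, chr10:79781474-79790961) it had 1, 10 and 0 counts in the 3 water tumours, 36, 56 and 118 in the progressing tumours and 103, 109 and 95 in the regressing tumours. The lowest ATO value, 2.22 CPM, lay above the highest water value, 0.764 CPM, and the progressing and regressing tumours overlapped. In edgeR's quasi-likelihood fit, with p-values adjusted by Benjamini-Hochberg over all genes tested, it rose by a log2 fold change of 4.25 ± 1.13 (SE, adjusted p = 0.0354) in progressing and 4.63 ± 1.14 (adjusted p = 0.0373) in regressing tumours against water. These contrasts share the water tumours, where the gene was close to 0. In the same contrasts 4.77% and 3.13% of all 18119 genes tested rose. The calls depended on single libraries: with each left out in turn, the first contrast passed in 2 of 6 fits (without progressing replicate 1 or water replicate 2) and the second in 1 of 6 (without water replicate 2). Over 10 alternatives the adjusted p ranged from 7.59e-05 to 0.101 in the first and from 2e-05 to 0.135 in the second. Between regressing and progressing tumours, where 12.6% of all genes were called, the difference was 0.38 ± 0.94 (adjusted p = 0.811).

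In the C57 grafts Prss57 fell. It had 420 and 334 counts (30.6 and 22.4 CPM) in the PBS tumours and 153 and 211 counts (11.3 and 13.9 CPM) in the ATO tumours, which do not overlap. The log2 fold change was -1.07 ± 0.30 (SE, edgeR adjusted p = 0.0376), where 6.57% of the 15468 genes tested fell. The call was lost without ATO replicate 1 (0.0547) and without PBS replicate 1 (0.265), and the adjusted p ranged from 0.00973 to 0.265 over 8 alternatives. In both mouse systems Prss57 overlaps Fstl3 on the opposite strand, which had 0 to 50 counts in W/W and 13 to 25 in C57 samples. Whether counting used strand is not given in the sources used here. Lyz2, the lysozyme of macrophages, fell as well, from 5850 and 5016 counts (426 and 337 CPM) to 3138 and 3448 counts (231 and 227 CPM), by a log2 fold change of -0.73 ± 0.20 (adjusted p = 0.0366). That call was lost without ATO replicate 2 (0.0568) and without PBS replicate 1 (0.239), with a range from 0.00557 to 0.239 over 8 alternatives. Of 10 macrophage markers tested, C1qa, C1qb and C1qc, the complement C1q chains, fell. The summed level of all 12 listed was 366 to 517 CPM in PBS and 157 to 192 CPM in ATO, but that of the 9 without the C1q genes was 83.2 to 131 CPM in PBS and 79.3 to 91.5 CPM in ATO, which overlap. The share of mitochondrial counts also differed, at 0.521 and 1.02% in PBS and 5.98 and 4.03% in ATO. Granulocyte markers summed to 6.78 to 23.4 CPM in PBS and 15.5 to 35.7 CPM in ATO, with Csf3r, the receptor for granulocyte colony-stimulating factor, the only 1 of 6 tested that rose (1.76, edgeR adjusted p = 0.0486), where 7.37% of all genes did. Its adjusted p ranged from 0.0209 to 0.233 over 8 alternatives. The part of these values in the Prss57 and Lyz2 differences was not tested.

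In the W/W thymus the lysozyme genes varied widely within groups. Lyz1, the lysozyme of Paneth cells, had 4268, 20 and 639 counts in water replicates 1, 2 and 3, 50, 74 and 22 in progressing and 72, 52 and 153 in regressing tumours. The groups overlapped, since water replicate 2, at 1.53 CPM, lay below all 6 ATO tumours. Its log2 fold change was -4.85 ± 1.36 (SE, edgeR adjusted p = 0.0432) in progressing tumours, where 7.13% of all genes fell, and -4.12 ± 1.31 (adjusted p = 0.0759) in regressing tumours. Without water replicate 1 these values were -2.49 (adjusted p = 0.177) and -1.75 (0.312). The call in progressing tumours held in 1 of the 6 fits that left out a library, that without water replicate 2, and its adjusted p ranged from 1.19e-07 to 0.193 over 10 alternatives. Lyz2 ranged from 622 to 1800 CPM in water, from 112 to 754 CPM in progressing and from 157 to 456 CPM in regressing tumours, with log2 fold changes of -1.30 ± 0.66 (edgeR adjusted p = 0.225, range 0.0491 to 0.49 over 10 alternatives) and -1.91 ± 0.67 (0.097, range 0.00424 to 0.306). For Lyz1 in regressing tumours the range was 7.76e-06 to 0.312. DESeq2 called 3 of the 5 counterparts in regressing against water, where edgeR called 1, and 2 in progressing against water, where edgeR called 2. Lyz1 and Lyz2 are close copies, and reads may have been shared between them. The summed level of 12 macrophage markers was 615 to 2054 CPM in water, 245 to 998 CPM in progressing and 449 to 735 CPM in regressing tumours, and in progressing tumours Csf1r was the 1 of 12 that fell (-1.96, edgeR adjusted p = 0.0301, range 0.000507 to 0.0746 over 10 alternatives). Their part in the lysozyme values was not tested.

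Mpo and Ear2 passed in no contrast. Mpo had 0.516, 3.21 and 2.41 CPM in water, 0.123, 0.761 and 0.735 CPM in progressing and 3.84, 2.33 and 0.923 CPM in regressing tumours, where the regressing values lay above the progressing ones (2.13 ± 0.94, edgeR adjusted p = 0.148). Ear2 ranged from 3.48 to 38.3 CPM in water, 1.03 to 43.2 in progressing and 13.0 to 32.2 in regressing tumours. Between regressing and progressing tumours edgeR called none of the 5 counterparts, with 1 at an unadjusted p under 0.05, and DESeq2 called 0.

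**Figure D5:**
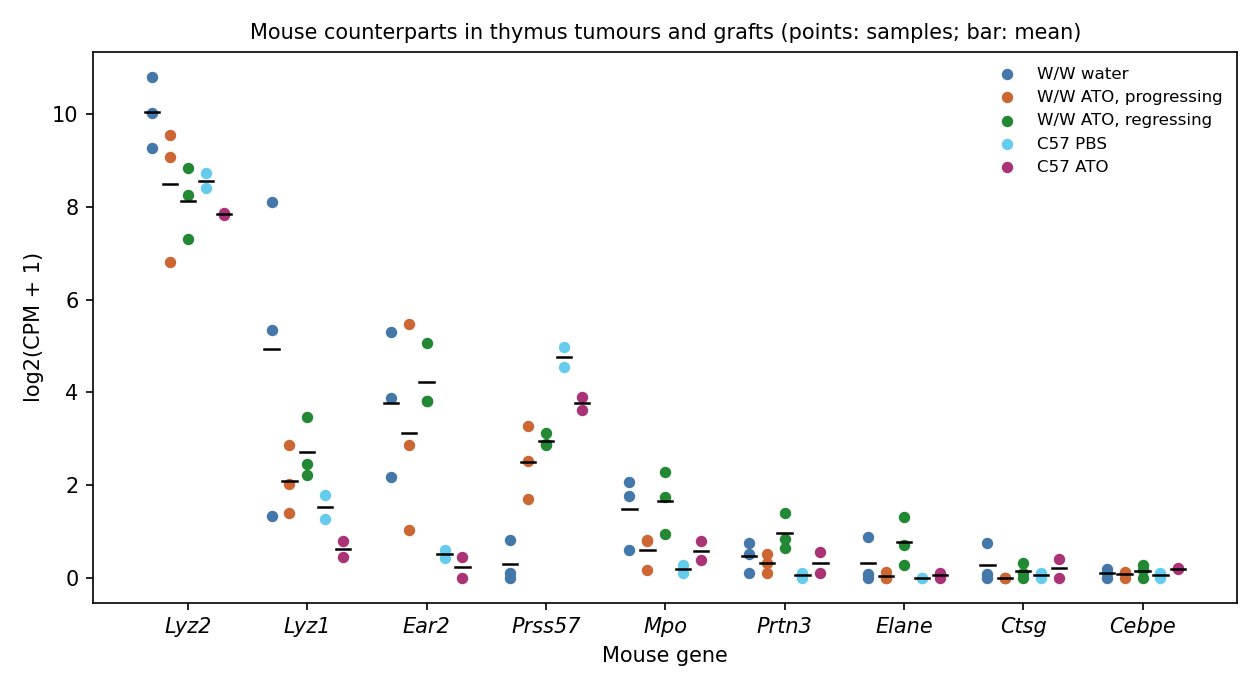
Log2(CPM + 1) of 9 mouse counterparts in each W/W thymus and C57 graft sample. Each point is a tumour and colours mark the 5 groups. Prss57 is close to 0 in water tumours and between 2.22 and 8.67 CPM in the ATO-treated W/W tumours, and is lower in the ATO than in the PBS grafts, while Prtn3, Elane, Ctsg and Cebpe lie near 0 throughout.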

How the data were processed

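RNA was sequenced from 2 U937 libraries, 9 W/W thymic lymphomas and 4 C57 grafts. Per the labels' protocols, TRIzol was used for extraction and a SMARTer mRNA-Seq kit for the libraries. Their text also describes a cell culture with insulin and dexamethasone, which names none of these samples. The submitters' processing notes name FastQC 0.10.1, cutadapt 1.9.1, HISAT2 2.0.1 and the mouse builds GRCm38 and mm10, also for the human samples. Neither the counter, nor the strand setting, nor the annotation is given in the sources used here.

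For each system the authors deposited a table of gene counts that were not normalized. Beside them, per the file headers, they deposited FPKM, used here for levels between genes and as an alternative. The coordinates of 98.2% of the U937 genes, and of all 10 members, were those of GENCODE v44 on GRCh38. Those of 99.4% of the W/W genes matched GENCODE vM21 on GRCm38. The C57 table uses another mouse build, and no C57 coordinates are printed.

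CPM in U937 cells was computed from the summed counts, with exact Poisson intervals at 95%. Ratios had exact conditional binomial intervals and shares of all counts Wilson intervals, all for counting error only. The shared scale was the log2 ratio of CPM with a pseudocount of 1, for genes whose mean reached 1 CPM, and 2-fold was the threshold. There was no test, because each treatment had 1 library. The mouse comparisons used edgeR 4.0.16 under R 4.3.3 (filterByExpr, TMM, quasi-likelihood, Benjamini-Hochberg, threshold 0.05). The 9 W/W samples were fitted as 3 groups and the 4 C57 samples alone. Each table was tested by itself. The library totals were 12800367 to 17550594 counts in W/W and 12922147 to 15637644 in C57. Nothing in the labels says what a replicate is beyond a number, so p-values measure the spread between these samples. With the simulated counts of the regressing and water groups the test recovered 30.3% of 8-fold changes over 18119 genes, and with those of the C57 groups 83.3% over 15468 genes. Of 4-fold changes it recovered 11.9% and 74.6%, and of 2-fold changes 1.49% and 28.4%. Alternatives were DESeq2 1.42.0, other scalings and pseudocounts, no filter, a replicate block and leaving out each replicate.

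Upstream windows were read from hg38 with transcript starts from GENCODE v44. Genes were named by rule: all members and mouse counterparts, at most 6 genes per list with at least 10 CPM, the 10 lowest, 10 highest and 10 nearest in ratio, and neighbours within 250 kb. Csf1r, Csf3r, C1qa, C1qb, C1qc, CEBPA, SPI1, RNH1, FCGR1A, CCR3, CEACAM8, EPX, PRG2, CLC, BPI, LTF, LCN2 and the genes listed at 0 were named outside that rule, after their values were seen. The members, the lists and the comparisons were chosen with earlier results of these data known, and nothing here is independent support for a pattern already seen in them. Some genes that the rule names are not reported here.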

Additional observations from a re-analysis of the deposited data

Results flagged for a closer look

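Prss57 was picked out because its direction differed between systems treated with the same agent. Its log2 fold change under ATO was 4.25 in progressing and 4.63 in regressing W/W tumours against water, with every ATO tumour above every water tumour. In the C57 grafts it was -1.07, with both ATO grafts below both PBS grafts. Such separation in the grafts was not particular to Prss57. Lyz1 and Lyz2 were also below in both ATO grafts, and Prtn3, Mpo and Cebpe, at few counts, above. The share of all genes whose groups do not overlap was not counted. The tables were deposited separately and the controls differ (water and PBS), so the difference between systems was not tested. The W/W contrasts share their water tumours, which had 1, 10 and 0 counts. Fstl3, which overlaps Prss57 on the opposite strand, had 0 to 50 counts in the W/W samples.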

How the results depend on the processing

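The count of 7 members at least 2-fold lower was the same under every U937 alternative run (TMM and DESeq2 factors, pseudocounts of 0.1 and 5, FPKM, leaving out mitochondrially encoded genes). The count of members at least 2-fold higher was 1, and 0 with TMM factors, DESeq2 size factors or a pseudocount of 5. Relative to CPM, TMM factors shifted every U937 gene by -0.21 and DESeq2 factors by -0.17, and the share of calls that were higher went from 64.2% to 49.2% (1670 lower, 1615 higher) and 52.0% (1568 lower, 1696 higher). The 2096 genes at least 2-fold higher numbered 1047 with a pseudocount of 5, 1296 by FPKM and 946 with a mean of at least 10 CPM.

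In the mouse tables, genes called numbered 1396 for regressing against water (2689 with no filter, 3354 by DESeq2, 60 to 1190 leaving out 1 replicate), 2157 for progressing against water (3594, 3733, 907 to 2557, and 882 with only the compared groups), 2289 for regressing against progressing (3621, 4121, 177 to 2000) and 2157 for C57 (3274 with no filter, 685 to 2420 leaving out 1 replicate). The count moved by over 1.5 times without each regressing replicate or water replicate 2 in the first, progressing replicate 3 or water replicate 1 or 3 in the second, each regressing replicate or progressing replicate 2 or 3 in the third, and PBS replicate 1 in C57. Where a C57 group was left with 1 sample, that sample was assumed to vary like the other group. Replicate numbers were not taken to pair samples, since the labels do not say that they do. Correlations of same-numbered deviations ran from -0.124 to 0.136 in W/W. In C57 they were -0.13, but with 2 samples per group the crossed numbers must give 0.13. The C57 value therefore cannot show whether samples were paired. With a replicate block the counts were 956, 1405, 1597 and 1350, and with the C57 numbers crossed, chosen after seeing the data, 3298. The block left Prss57 called in regressing tumours (adjusted p = 0.0464, edgeR) but not in progressing tumours (0.0508) or C57 grafts (0.0698), and ended the calls of Lyz1 in progressing tumours (0.193) and Lyz2 in grafts (0.0607). The cause of these changes was not tested. No member's log2 ratio and no fold change reported for Prss57, Lyz1 or Lyz2 changed sign. The balance of higher and lower calls did turn in some settings: for example, without regressing replicate 1 the first contrast had 78 genes higher and 8 lower, against 568 and 828, and C57 had 1230 and 1328 by DESeq2, against 1140 and 1017. The median of all U937 genes went from 0.13 to -0.07 with TMM and -0.03 with DESeq2 factors. Single U937 libraries limit all U937 values to counting error.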
